A study of Mus musculus with 2 samples.

Results

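Tnf, Il1b, Il1a, Il1rn, Il6, Il18, Tnfaip3, Nfkbiz and Ptgs2 were described across the immune cells of mouse visceral adipose tissue (VAT). These 9 genes encode inflammatory cytokines, their antagonist and regulators, were named in advance as a set, and are 9 of the 26981 genes listed in the single-cell tables of the series. Each was listed in both libraries, among 24765 genes in one and 25447 in the other. The libraries held CD45+ cells enriched with magnetic beads from digested epididymal VAT of C57BL/6 wild-type mice aged 15 weeks and kept under specific pathogen free (SPF) conditions. One group drank normal water (NW). The other (ABX) drank water with ampicillin, streptomycin, colistin and vancomycin. There was 1 library per condition, and the number of mice behind each library is not given in the sources used here.

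TNF and the interleukin-1 cytokines are secreted early in inflammation, mainly by macrophages, and their receptors activate the transcription factor NF-κB, which in turn drives the transcription of Tnf, Il1b and Il6 themselves. The same signal induces its own brakes and modifiers. Tnfaip3 encodes A20, a ubiquitin-editing enzyme that shuts NF-κB signalling down, and Nfkbiz encodes IκBζ, a nuclear protein that steers NF-κB towards a subset of secondary targets including Il6. Il1rn encodes the interleukin-1 receptor antagonist, which occupies the receptor for IL-1α and IL-1β without activating it, and Ptgs2 encodes cyclooxygenase-2, the inducible enzyme of prostaglandin synthesis. In adipose tissue TNF and IL-1β are known for impairing insulin action in adipocytes. IL-18 is the exception in mode of supply, being made constitutively as a precursor by many myeloid cells and released after cleavage by caspase-1.

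In the annotation of GRCm38, Tnf lies on chr17:35199381-35202007 on the minus strand and Il6 on chr5:30013114-30019981 on the plus strand. Il1a (chr2:129299610-129309972) and Il1b (chr2:129364570-129371139) are neighbours on the minus strand of chromosome 2, which also carries Il1rn (chr2:24336853-24351494, plus strand). Il18 is on chr9:50554827-50581840 (plus), Tnfaip3 on chr10:19000910-19015657 (minus), Nfkbiz on chr16:55811375-55838899 (minus) and Ptgs2 on chr1:150100031-150108227 (plus). The RefSeq promoter sequences of 4 members, 250 bases before the start of transcription, are shown because they differ in which of the searched elements they hold. Capitals mark a TATAAA box in Tnf (chr17:35202008-35202257, minus strand) and in Il1b (chr2:129371140-129371389, minus strand), and a match to the NF-κB consensus in Il6 (chr5:30012864-30013113, plus strand) and Tnfaip3 (chr10:19015411-19015660, minus strand). All are from GRCm38.p6 and written 5′ to 3′ on the gene's strand.
Tnf: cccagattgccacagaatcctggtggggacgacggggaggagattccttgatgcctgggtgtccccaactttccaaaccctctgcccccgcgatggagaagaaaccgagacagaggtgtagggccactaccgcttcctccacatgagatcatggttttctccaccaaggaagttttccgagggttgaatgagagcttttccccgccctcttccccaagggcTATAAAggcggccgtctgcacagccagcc
Il1b: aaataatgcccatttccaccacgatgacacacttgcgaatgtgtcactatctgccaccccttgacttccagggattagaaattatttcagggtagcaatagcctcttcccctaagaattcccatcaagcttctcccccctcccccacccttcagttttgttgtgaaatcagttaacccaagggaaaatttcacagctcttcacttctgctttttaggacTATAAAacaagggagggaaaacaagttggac
Il6: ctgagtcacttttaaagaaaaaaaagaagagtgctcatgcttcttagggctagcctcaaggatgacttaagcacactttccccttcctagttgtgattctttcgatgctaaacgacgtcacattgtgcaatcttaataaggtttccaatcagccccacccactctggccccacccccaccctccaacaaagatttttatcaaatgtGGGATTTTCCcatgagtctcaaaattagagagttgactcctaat
Tnfaip3: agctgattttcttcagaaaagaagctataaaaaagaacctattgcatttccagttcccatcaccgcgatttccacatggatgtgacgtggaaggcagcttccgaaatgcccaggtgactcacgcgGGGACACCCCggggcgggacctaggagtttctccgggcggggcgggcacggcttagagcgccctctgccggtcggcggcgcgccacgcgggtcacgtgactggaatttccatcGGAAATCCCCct
The TATAAA box stood 29 to 24 bases before the start in Tnf and 31 to 26 bases before it in Il1b. The NF-κB match stood 44 to 35 bases before the start in Il6, and Tnfaip3 held 2 matches, at 125 to 116 and, on the opposite strand, at 12 to 3 bases. The Tnfaip3 window also held TATAAA at 225 to 220 bases, which is not in capitals. Its RefSeq start lies inside the gene interval given above, and so does nearly all of the window. Another RefSeq promoter of Tnfaip3, not shown, held 0 matches to the searched elements. Promoters were found for 8 of the 9 genes, all but Nfkbiz. Searched on both strands, the NF-κB consensus was in at least 1 promoter of 2 of the 8 genes and of 4.46% of 27025 mouse genes, TATAAA in 5 of the 8 and 14.3% of genes, and TGANTCA, the AP-1 element, in 4 of the 8 and 7.82%. Of all 32851 promoters of the same length, these motifs were in 3.90%, 12.4% and 6.75%. No matches overlapped in the members, and a match describes only the letters in these windows.

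After filtering, 12474 NW cells with a median of 5092 unique molecular identifiers (UMIs, counted transcript molecules) and 12724 ABX cells with a median of 3846 were kept. A transcript of Ptprc, which encodes CD45, was counted in 79.9% of NW and 75.4% of ABX cells, and in 58.7% and 47.1% of the endothelial-like cells. Levels are given per 1000000 UMIs of the same cells (CPM). Their 95% intervals reflect the counting of UMIs and no other source of error. Since each condition had a single library, no test between conditions was possible, and antibiotics cannot be told apart from any other difference between the libraries. Macrophage transcripts were also found in other cells: C1qa was counted in 95.2% of NW and 92.5% of ABX macrophage-like cells, but also in 25.3% and 17.9% of lymphocyte-like cells, whose median depth was 3708 and 3448 UMIs against 5660 and 4075 in macrophage-like cells. A level of a member in lymphocytes was therefore set beside the C1q (C1qa, C1qb and C1qc) UMIs of the same cells. The libraries shared 196 cell indexes among the cells kept.

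Macrophage-like cells (5852 NW, 5068 ABX) fell into 4 states named from their markers. Lyve1+ cells (2590 and 1760) resemble resident perivascular macrophages, cells with Retnla and Cd163 (2556 and 2451) formed another large state, an interferon-stimulated state had 71 cells in each library, and Cx3cr1+ cells with Ccl12 and Cd72 numbered 635 and 786. Members among the 2000 most variable genes were left out before clustering. Il1b, Tnf and Nfkbiz were still among the genes with the highest folds in the Cx3cr1+ state, so the levels by state below are descriptions.

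Tnf was highest in the Cx3cr1+ macrophage-like state, at 223 CPM (208–239, 826 UMIs) in NW and 248 (232–265, 907 UMIs) in ABX. The Lyve1+ state held 24.2 CPM in NW and 23.7 in ABX, and the Retnla/Cd163 state 25 and 24.9, so Cx3cr1+ cells stood far above both in each library. Among lymphocytes, group 2 innate lymphoid cell (ILC2)-like cells had 77.0 CPM in NW and 91.7 in ABX and CD4 T-like cells 56.8 and 47.2. Per 100 C1q UMIs, lymphocyte-like cells held 3.13 and 4.10 Tnf UMIs against 0.620 and 0.937 over all cells. B-like cells (11 and 14.3 CPM) and conventional type 1 dendritic cell (cDC1)-like cells (15.1 and 16.8) were low. Neutrophil-like cells held 20 Tnf UMIs in 61 NW cells and 2 in 56 ABX cells, too few to place them.

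Il1b was a neutrophil transcript first. The 61 NW neutrophil-like cells had 8505 CPM (8014–9017), with a UMI in 91.8% of them, and the 56 ABX cells had 4508 (4108–4937), with a UMI in 80.4%. The Cx3cr1+ macrophage-like state followed, at 535 CPM (512–559) in NW and 561 (537–586) in ABX, against 30.1 and 36.7 in Lyve1+ cells and 31.8 and 31.6 in Retnla/Cd163 cells. A cluster led by Fn1 and Ear2 held 182 and 103 CPM. It matched the lipid-associated macrophage list best (5 of 8 markers), but was not named because it met 0 of the 9 macrophage markers. Dendritic cells came next: cDC2-like cells had 153 and 104 CPM and cDC1-like cells 131 and 68.1. Lymphocyte-like cells held 21.7 and 19.5 CPM, which was 1.56 and 1.96 Il1b UMIs per 100 C1q UMIs. This was close to the 1.48 and 1.63 over all cells, which include neutrophil-like cells at 850 and 308. What part of the lymphocyte level was background was not tested. Single classes stood higher, with 4.34 Il1b UMIs per 100 C1q UMIs in ABX Treg-like cells (36 UMIs, 66.4 CPM, against 23.8 in NW), 2.95 in ABX ILC2-like and 3.11 in NW plasma-like cells. The γδ T-like cells held only 4 and 3 Il1b UMIs in 241 and 290 cells, or 0.444 and 0.465 per 100 C1q UMIs.

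**Figure D1:**
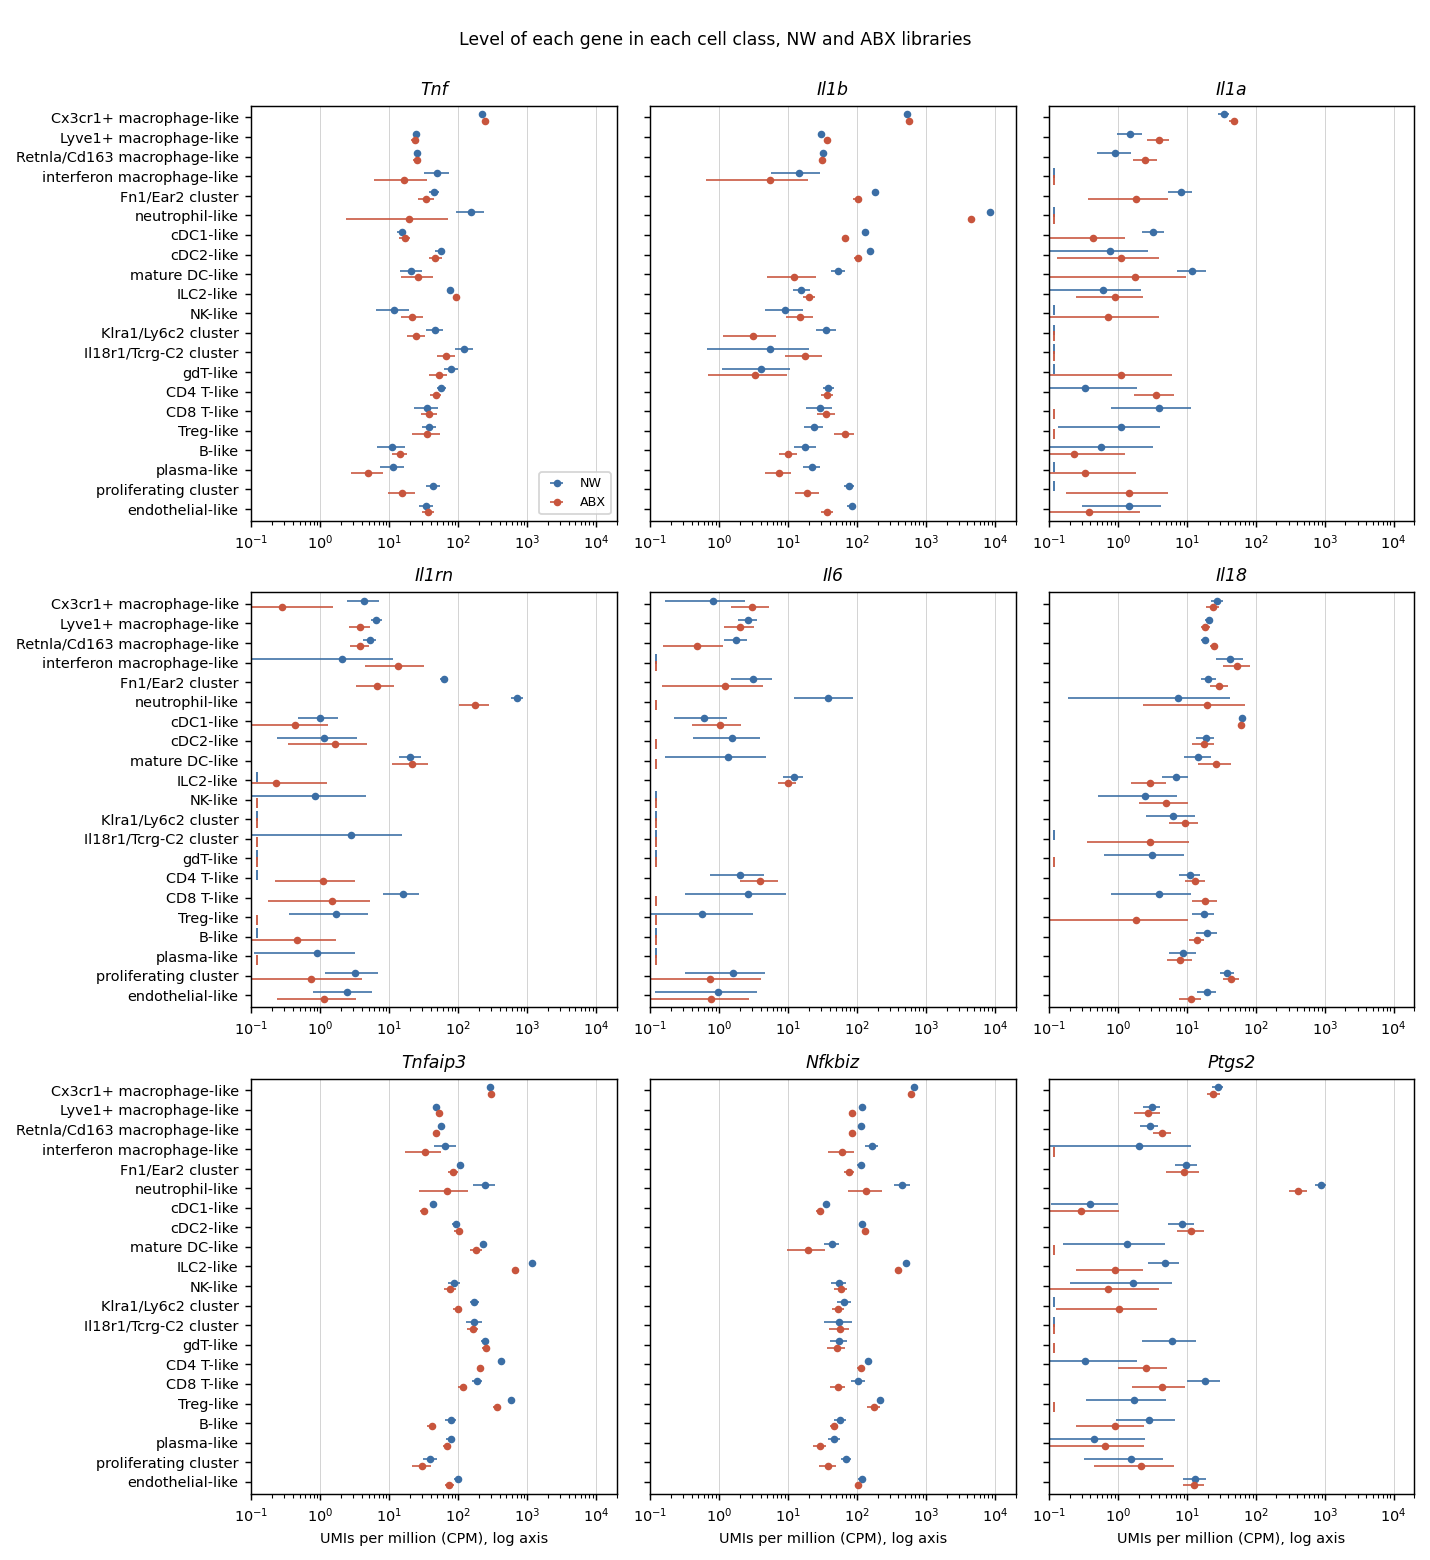
Level of each of the 9 genes (one panel each, CPM on a log axis) in 21 cell classes, with blue points for NW, red points for ABX and bars for 95% counting intervals, ticks at the left edge marking classes with no UMI. Tnf, Il1a and Nfkbiz stand highest or nearly so in Cx3cr1+ macrophage-like cells, Il1b, Il1rn and Ptgs2 in neutrophil-like cells, Il18 in cDC1-like cells and Tnfaip3 in ILC2-like cells.

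Within a state, the cytokine transcripts sat in few cells. Of macrophage-like cells, 449 in NW and 334 in ABX had any Il1b UMI, with up to 84 and 109 in a single cell, and the 1% of cells with the most held 60.2% and 57.2% of all Il1b UMIs. For Tnf, 667 and 509 cells had a UMI, and the top 1% held 42.0% and 42.5%. Even in the Cx3cr1+ state a Tnf UMI was found in 28.8% of NW cells (25.3–32.5) and 26.6% of ABX cells (23.5–29.8), and an Il1b UMI in 24.4% and 22.0%. These shares compare with 3.80% and 2.56% of lymphocyte-like cells with an Il1b UMI.

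Il1a, which encodes the membrane and nuclear form of interleukin-1, was the member most restricted to 1 state. Cx3cr1+ cells held 34.6 CPM (28.9–41.1, 128 UMIs) in NW and 47.9 (41.1–55.6, 175 UMIs) in ABX, and these cells carried 48.3% and 66.0% of all Il1a UMIs counted in the libraries. The Lyve1+ state had 1.5 and 3.89 CPM, from 25 and 33 UMIs, and the Retnla/Cd163 state 0.920 and 2.51, from 14 and 26. Il6 was the scarcest member, with 157 UMIs in all NW cells and 101 in all ABX cells. Its level in ILC2-like cells was 12 CPM (8.60–16.4) and 9.86 (7.17–13.2), against 2.05 and 1.44 in macrophage-like cells, and ILC2-like cells carried 25.5% of its UMIs in NW and 43.6% in ABX. Set beside C1q, Il6 in ILC2-like cells was 1.11 and 1.44 UMIs per 100 C1q UMIs, against 0.0318 and 0.0360 over all cells. Il18 was spread over the myeloid compartment with its highest level among the large classes in cDC1-like cells, at 64.2 CPM (59.4–69.4) and 61.8 (56.1–68.0), and a UMI in 36.1% and 33.0% of them. Macrophage-like cells held 20.8 and 22.9 CPM of Il18. Unlike Tnf and Il1b, it was not concentrated in Cx3cr1+ cells, and dendritic cells as a whole carried 38.6% and 34.7% of its UMIs.

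The antagonist Il1rn followed the neutrophil pattern of Il1b. Neutrophil-like cells held 720 CPM (583–880, 95 UMIs) in NW and 175 (103–276, 18 UMIs) in ABX. The Fn1/Ear2 cluster came second in NW at 62.5 CPM (54.1–71.8, 198 UMIs), but had 6.65 (3.32–11.9, 11 UMIs) in ABX. Mature DC-like cells had 20.2 and 21.0 CPM, with overlapping intervals. In macrophage-like cells the level was 5.68 and 3.37 CPM. Among macrophage-like states, Il1rn was 4.32 CPM (2.47–7.02, 16 UMIs) in NW Cx3cr1+, 6.53 (5.36–7.87) in Lyve1+ and 5.19 in Retnla/Cd163 cells, which their counts do not separate. ABX Cx3cr1+ cells held 1 Il1rn UMI.

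Tnfaip3 and Nfkbiz, the regulators, were divided between macrophages and lymphocytes. ILC2-like cells had the highest Tnfaip3 level of all classes in both libraries, at 1179 CPM (1142–1216) in NW and 675 (651–699) in ABX. Regulatory T (Treg)-like cells followed with 586 and 363, then CD4 T-like cells with 417 and 207 in NW and ABX. Cx3cr1+ macrophage-like cells held 284 and 301 CPM and mature DC-like cells 229 and 182, whereas Lyve1+ cells held 48.0 and 52.4. In ABX the Cx3cr1+ state (284–319) stood above CD4 T-like cells (190–224), and in NW below them (267–302 against 394–441). Nfkbiz was highest in the Cx3cr1+ state, at 673 CPM (646–699) and 604 (579–630), and ILC2-like cells came second among the large classes at 519 (495–544) and 389 (371–408). Lymphocyte-like cells as a whole had 196 and 140 CPM of Nfkbiz. Ptgs2 was again a neutrophil transcript, at 879 CPM (727–1055, 116 UMIs) and 417 (302–562, 43 UMIs). Cx3cr1+ macrophage-like cells held 28.1 and 24.4 CPM of Ptgs2, and macrophage-like cells as a whole 5.57 and 6.91.

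**Figure D2:**
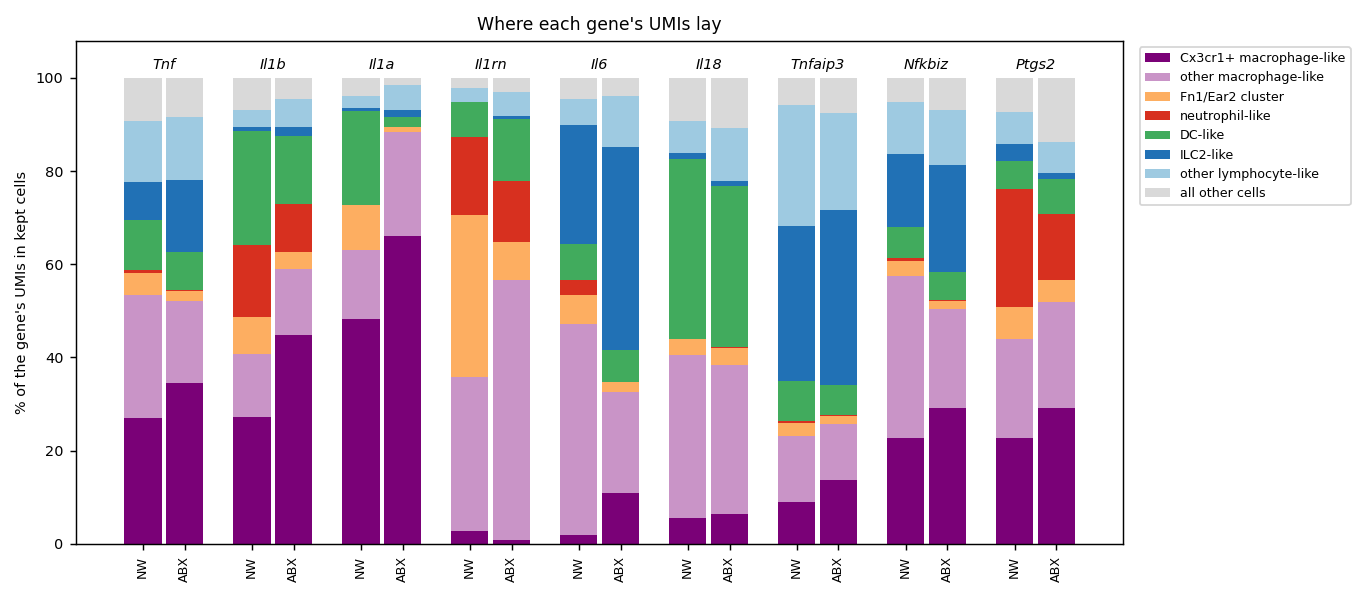
Percent of each gene's UMIs in kept cells (vertical axis) found in each group of cells, with 1 stacked bar for NW and 1 for ABX per gene. The Cx3cr1+ macrophage-like state carried 27.2% of Il1b UMIs in NW and 44.9% in ABX, and 27.0% and 34.5% of Tnf UMIs, while ILC2-like cells carried 33.2% and 37.7% of Tnfaip3 UMIs.

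Over all macrophage-like cells, several members were higher in the ABX library. Tnf was 45.3 CPM in NW and 60.0 in ABX, a log2 ratio of 0.41 (0.30–0.51), and Il1b 82.3 and 118, a log2 ratio of 0.52 (0.44–0.59). Il1a was 4.62 and 10.2 CPM, 2.21-fold higher in ABX with a log2 ratio of 1.15 (0.85–1.44), from 167 and 234 UMIs. Each of the 3 agonists was thus higher in ABX, Il1a alone by more than 1.5-fold. Il1rn was lower in ABX, at 5.68 and 3.37 CPM from 205 and 77 UMIs, a log2 ratio of -0.75 (-1.15 to -0.37). Tnfaip3 had a log2 ratio of 0.25 (0.16–0.33) and Nfkbiz of -0.06 (-0.11 to 0.00). For Il6 (-0.51, -1.14 to 0.10) and Il18 (0.14, -0.02 to 0.30) the intervals took in no difference, and for Ptgs2 (0.31, 0.00–0.62) the lower bound was near it. Of 8 members with at least 200 UMIs in these cells, 1 was at least 1.5-fold higher in ABX (Il1a) and 1 at least 1.5-fold lower (Il1rn), each with an interval excluding no difference. Of all 10200 genes with as many UMIs, 3.29% were higher and 1.08% lower by the same rule. The median log2 ratio was 0.28 over the 8 members and 0.01 over all genes. The interferon-stimulated state had too few UMIs for such ratios.

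These pooled ratios combine the level in each state with how many cells of each state a library held, and the Cx3cr1+ state made up 635 of 5852 macrophage-like cells in NW and 786 of 5068 in ABX. With each cluster given the same share in both libraries, the log2 ratio was 0.07 for Tnf, 0.09 for Il1b and 0.00 for Tnfaip3. It was 0.69 for Il1a, -0.69 for Il1rn and -0.32 for Nfkbiz. The higher pooled Tnf, Il1b and Tnfaip3 levels of the ABX library thus went with its larger number of Cx3cr1+ cells, which are the cells in which these genes are highest. Within the Cx3cr1+ state itself, Il1b was 535 CPM in NW and 561 in ABX (log2 ratio 0.07, -0.02 to 0.16), Tnf 223 and 248 (0.15, 0.02–0.29) and Tnfaip3 284 and 301 (0.08, -0.04 to 0.21). Il1a was 34.6 and 47.9 in this state (0.47, 0.13–0.81). In Lyve1+ cells the ratio was -0.03 (-0.28 to 0.22) for Tnf and 0.29 (0.08–0.49) for Il1b, and in Retnla/Cd163 cells it was -0.01 for both and -0.22 for Tnfaip3. Nfkbiz went the other way in each state, with log2 ratios of -0.16 (-0.24 to -0.07) in Cx3cr1+, -0.48 (-0.60 to -0.35) in Lyve1+ and -0.43 (-0.55 to -0.31) in Retnla/Cd163 cells. Of Lyve1+ cells, 33.0% in NW and 20.5% in ABX had a Nfkbiz UMI, and after thinning each cell to 1000 UMIs in 9.96% and 7.31%. In each of these 3 states, none of the 5 members with at least 200 UMIs there reached a 1.5-fold difference. From fewer UMIs, Il1a was past it in Lyve1+ (1.38, 0.59–2.19) and Retnla/Cd163 cells (1.45, 0.46–2.50). Il1rn was past it downwards in Lyve1+ (-0.79, -1.41 to -0.21) and, from 16 and 1 UMIs, in Cx3cr1+ cells. So was Il6 in Retnla/Cd163 cells, from 27 and 5 UMIs (-1.88, -3.61 to -0.48).

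**Figure D3:**
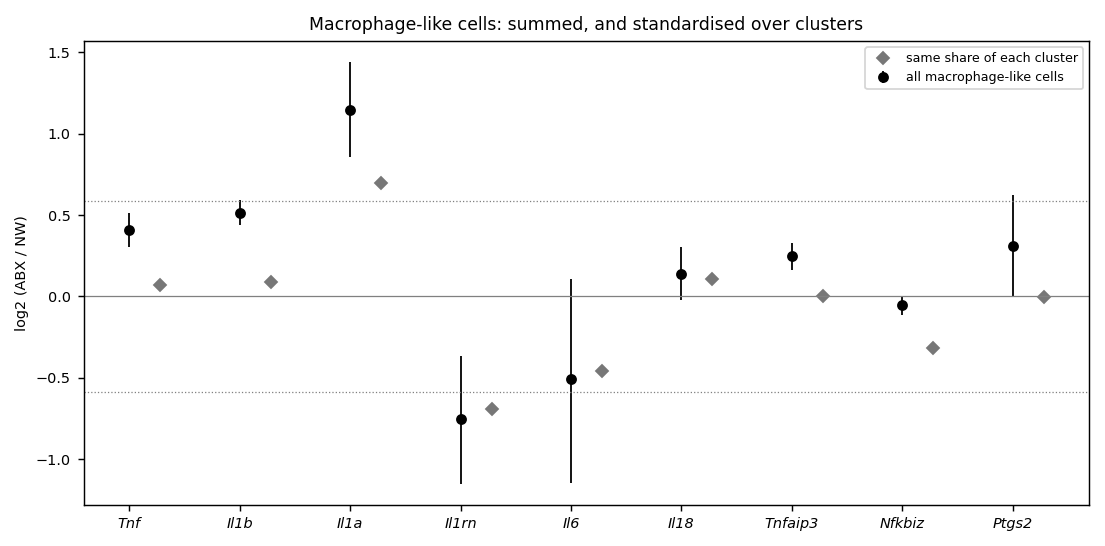
Log2 ratio of ABX to NW (vertical axis) for the 9 genes in macrophage-like cells, with circles and bars for the pooled cells and their 95% counting intervals, diamonds for the ratio with each cluster given the same share in both libraries, and dotted lines at a 1.5-fold difference. The diamonds of Tnf (0.07), Il1b (0.09) and Tnfaip3 (0.00) lie near 0, and those of Il1a (0.69) and Il1rn (-0.69) do not.

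In dendritic and neutrophil-like cells, Il1b was lower in the ABX library. In cDC1-like cells, dendritic cells specialised in cross-presentation, it was 131 CPM in NW (124–138, 1310 UMIs in 1162 cells) and 68.1 in ABX (62.0–74.5, 469 UMIs in 866 cells), a log2 ratio of -0.94 (-1.10 to -0.79). The share of cDC1-like cells with an Il1b UMI was 21.9% and 10%, and 7.64% and 3.75% after thinning. In cDC2-like cells the log2 ratio was -0.56 (-0.82 to -0.31), in the Fn1/Ear2 cluster -0.82 (-1.07 to -0.57) and in neutrophil-like cells -0.92 (-1.07 to -0.76). Without the Fn1/Ear2 cells with at least 5 UMIs of proliferation markers the ratio in that cluster was -0.65, and without those with as many of lipid-associated macrophage markers -0.98. Mature DC-like cells held 80 Il1b UMIs in NW and 7 in ABX. A lower Il1b was not confined to these cells. From fewer than 200 UMIs each, it was also past 1.5-fold lower in the proliferating cluster (148 and 26 UMIs, -2.02) and plasma-like cells (49 and 22, -1.59). So it was in the Klra1/Ly6c2 cluster (40 and 6, -3.53) and B-like cells (31 and 44, -0.82). Treg-like cells went the other way (42 and 36, 1.48). Over DC-like cells as a whole Il1b was 127 and 71.7 CPM, a log2 ratio of -0.82 (-0.95 to -0.69), and it was the 1 member lower by 1.5-fold among 5 with at least 200 UMIs there, with none higher. Of 8431 genes in DC-like cells, 1.52% were lower and 0.807% higher by that rule. Il18, the other cytokine with a high level in cDC1-like cells, had a log2 ratio of -0.05 (-0.23 to 0.12). Endothelial-like cells had 83.4 and 37.2 CPM of Il1b, but at 1.25 and 0.925 Il1b UMIs per 100 C1q UMIs this was no more than over all cells. What part of it was background was not tested. Summed over all cells, Il1b was 96.9 CPM in NW and 75.1 in ABX (log2 ratio -0.37, -0.42 to -0.31).

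The 16 immediate early and heat shock genes that digestion of tissue is known to induce also differed between the libraries, at 1.60% of UMIs in NW and 1.35% in ABX cDC1-like cells and 2.59% and 1.92% in neutrophil-like cells. Il1b climbed with this share in cDC1-like cells, from 19.9 to 277 CPM over 5 bins in NW and from 15.6 to 206 in ABX. With cells matched over those bins, the log2 ratio of Il1b was -0.54 in cDC1-like and -0.47 in DC-like cells, both under the 1.5-fold limit, and -0.19 in neutrophil-like cells. What digestion contributed to these ratios was not tested.

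Tnfaip3, the member with the most UMIs in lymphocytes, was lower there in the ABX library. Lymphocyte-like cells (T-, B-, NK-, ILC2- and plasma-like, 3102 in NW and 4254 in ABX) held 467 CPM (456–478, 6980 UMIs) in NW and 248 (241–255, 4664 UMIs) in ABX, a log2 ratio of -0.91 (-0.96 to -0.86). The lower level in ABX was found in most lymphocyte classes. It stood at -0.80 (-0.87 to -0.74) in ILC2-like, -1.01 (-1.16 to -0.87) in CD4 T-like and -0.69 (-0.92 to -0.47) in Treg-like cells. In CD8 T-like cells it was -0.69 (-1.02 to -0.35), in B-like cells -0.90 (-1.23 to -0.56) and in a cluster led by Klra1 and Ly6c2 -0.81 (-1.11 to -0.51). The ratios of these 6 classes thus lay between -1.01 and -0.69, while γδ T-like cells, at 243 and 254 CPM, had a log2 ratio of 0.06 (-0.20 to 0.33). NK-like (-0.19, -0.60 to 0.21) and plasma-like cells (-0.17, -0.47 to 0.13) had intervals that took in no difference. So did a cluster led by Il18r1 and Tcrg-C2, from 62 and 109 UMIs (-0.09, -0.55 to 0.39). In ILC2-like cells a Tnfaip3 UMI was found in 80.9% of NW cells (77.9–83.7) and 64.6% of ABX cells (61.9–67.3), and after thinning to 1000 UMIs in 54.0% and 38.8%. In CD4 T-like cells the thinned shares were 29.2% and 16.8%. Some marker lists of other cells differed between the ILC2-like cells of the libraries: the 6 mast or basophil markers summed to 478 CPM in NW and 4.26 in ABX and the 6 mature DC markers to 234 and 21.1, and over lymphocyte-like cells the mast or basophil markers summed to 116 and 6.97. Cells with at least 5 UMIs of the mast or basophil markers numbered 3 among NW and 0 among ABX ILC2-like cells, and without them the log2 ratio of Tnfaip3 there was -0.80 (-0.87 to -0.74). Without the 5 NW cells and 1 ABX cell with as many mature DC marker UMIs it was -0.82 (-0.89 to -0.75). Tnfaip3 was the 1 member of 5 lower by 1.5-fold in lymphocyte-like cells and none was higher, beside 3.02% of 9839 genes lower and 1.92% higher. The members' median log2 ratio was -0.17 and that of all genes -0.03.

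Nfkbiz was also lower in ABX lymphocytes, at 196 and 140 CPM, a log2 ratio of -0.49 (-0.56 to -0.41), and in ILC2-like cells at 519 and 389, a log2 ratio of -0.41 (-0.51 to -0.32). Over T-like cells as a whole it passed 1.5-fold, at 146 and 94.5 CPM (-0.63, -0.78 to -0.47). Ptgs2 was lower too, but from only 48 and 24 UMIs in lymphocyte-like cells (-1.33, -2.10 to -0.59). Over lymphocyte-like cells as a whole Tnf did not share this. It was 43.7 and 40.7 CPM there (-0.10, -0.25 to 0.05) and 77.0 and 91.7 in ILC2-like cells (0.25, 0.02–0.48). From few UMIs, Tnf was past 1.5-fold lower in γδ T-like (77 and 47, -0.61) and plasma-like cells (25 and 15, -1.17). So it was in the Klra1/Ly6c2 (51 and 47, -0.91) and Il18r1/Tcrg-C2 clusters (44 and 45, -0.87). In CD4 T-, CD8 T-, Treg-, NK- and B-like cells the intervals took in no difference. The stress genes took 1.61% of NW and 1.36% of ABX UMIs in lymphocyte-like cells and 2.53% and 2.18% in ILC2-like cells. Within ILC2-like cells Tnfaip3 climbed with that share, from 351 to 1857 CPM over 5 bins in NW and from 324 to 1239 in ABX. The log2 ratio was -0.12 (-0.40 to 0.17) in the lowest bin and lay between -0.84 and -0.56 in the other 4. Matched over the bins it was -0.62 in ILC2-like and -0.64 in lymphocyte-like cells, and for Nfkbiz in lymphocyte-like cells -0.19. The part of digestion in these differences was not tested.

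**Figure D4:**
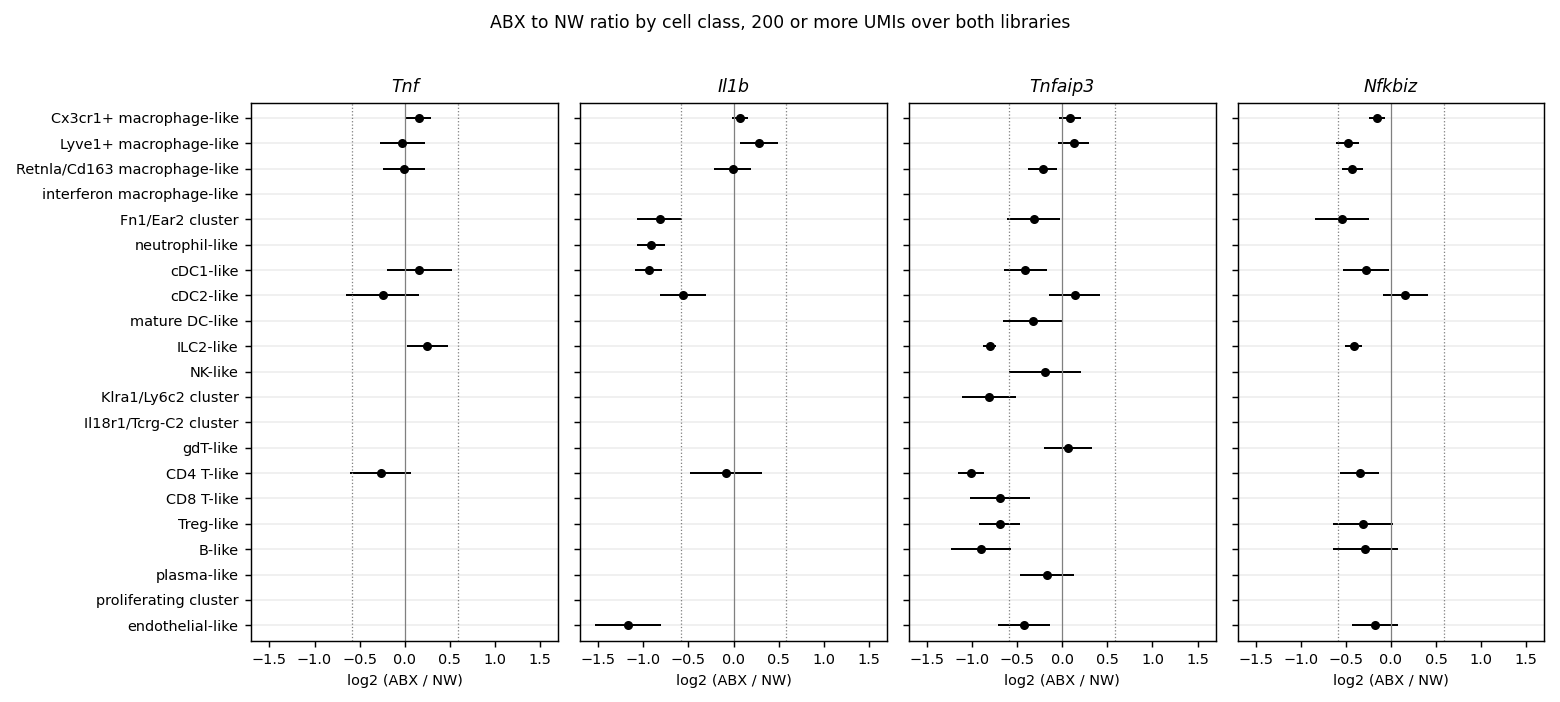
Log2 ratio of ABX to NW (horizontal axis) of Tnf, Il1b, Tnfaip3 and Nfkbiz in each class with at least 200 UMIs of the gene, with bars for 95% counting intervals and dotted lines at a 1.5-fold difference. Il1b lies below 0 in cDC1-, cDC2- and neutrophil-like cells and at 0.07 in Cx3cr1+ cells, and Tnfaip3 lies at -0.80 in ILC2-like and 0.06 in γδ T-like cells.

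Il1rn was the member with the largest difference over all cells, at 7.59 CPM in NW (6.98–8.24, 571 UMIs) and 2.24 in ABX (1.88–2.65, 136 UMIs), a log2 ratio of -1.76 (-2.04 to -1.49). It was lower in ABX in the Fn1/Ear2 cluster, Lyve1+ and neutrophil-like cells, which held the most of it in NW. Retnla/Cd163 cells, which held the most in ABX (79 UMIs in NW and 39 in ABX), had an interval that took in no difference (-0.47, -1.06 to 0.11). So did mature DC-like cells (0.06, -1.04 to 1.07). In the Fn1/Ear2 cluster the log2 ratio was -3.23 (-4.26 to -2.36), and this cluster held 34.7% of all Il1rn UMIs in NW and 8.1% in ABX. Its NW UMIs came from 6.89% of 653 cells, against 1.18% of 510 cells in ABX. The 8 markers of lipid-associated macrophages summed to 5010 CPM in NW and 1635 in ABX in the same cluster, the 10 monocyte markers to 3009 and 2397 and the 7 neutrophil markers to 134 and 167. The 6 mast or basophil markers summed to 289 and 1.21 CPM, the 6 peritoneal macrophage markers to 244 and 10.9 and the 6 proliferation markers to 270 and 734. Cells with at least 5 UMIs of the lipid-associated markers, 151 in NW and 44 in ABX, held 183 of the 198 NW and 9 of the 11 ABX Il1rn UMIs, at 107.9 and 17.3 CPM (log2 ratio -2.64, -3.79 to -1.68). The remaining cells held 15 and 2. Cells with as many mast or basophil or peritoneal macrophage marker UMIs held 0 Il1rn UMIs in either library, and the ratio without them was -3.24. The cluster was also shallow, at a median of 2201 and 1498 UMIs. In neutrophil-like cells the ratio was -2.04 (-2.86 to -1.31), and in Lyve1+ cells, from 109 and 32 UMIs, -0.79 (-1.41 to -0.21). Without neutrophil-like cells and the Fn1/Ear2 cluster the log2 ratio over all cells was -1.09.

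Of the wider pathway, 91 genes in 8 lists were examined in macrophage-like cells, and 88 had at least 200 UMIs. Of those, 2 were higher by 1.5-fold in ABX and 1 lower, beside 3.29% and 1.08% of all 10200 genes in these cells. The 2 higher were both subunits of the IL-18 receptor: Il18r1 at 7.53 and 12.5 CPM (log2 ratio 0.73, 0.48–0.97) and Il18rap at 4.68 and 7.39 (0.66). That receptor is best known from T and NK cells, and in the same cells the 7 CD4 T markers summed to 76.5 CPM in NW and 103 in ABX and the 6 CD8 T markers to 84.1 and 140, all of them counted. Their part in the Il18r1 and Il18rap values was not tested. The 8 of 10 receptors and decoys tested had a median log2 ratio of 0.01. In the inflammasome and processing list, which includes Casp1 and Nlrp3, all 8 genes were tested, 0 passed the fold and the median was 0.11. The 14 signalling adaptors had a median of 0.00, the 10 NF-κB subunits and inhibitors 0.09, the 13 feedback regulators 0.06, the 10 NF-κB target genes 0.09 and 9 of 10 prostaglandin genes -0.02, with 0 past the fold in each. Just under it were the chemokine gene Ccl3 at 393 and 587 CPM (0.58), the phosphatase gene Dusp2 at 25.1 and 36.6 (0.54) and Ccl4 at 121 and 173 (0.51), whereas the chemokine genes Cxcl1 (-0.01) and Cxcl2 (-0.07) were near 0. Of the 16 stress genes 1 was lower, the transcription factor gene Egr1, at 1268 and 818 CPM (-0.63), and the median was -0.17. Over all lists the median log2 ratio was 0.01, the same as over all genes.

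Within the Cx3cr1+ state, Tnf, Il1b, Il1a, Tnfaip3 and Nfkbiz were each counted more often in cells with another of them than in cells without. Among the 317 NW and 392 ABX cells in the middle range of depth, 52.1% and 54.9% of cells with a Tnf UMI also had an Il1b UMI, against 13.9% and 14.0% of cells without Tnf. The corresponding shares for Tnfaip3 were 68.1% and 65.5% against 33.6% and 25.4%, and for Nfkbiz 84.0% and 76.1% against 50.2% and 34.8%. An Il1a UMI was found in 20% and 27.7% of cells with Il1b and in 1.69% and 1.03% of cells without. For Il18 the NW shares depended on the partner. It was in 10.6% of NW cells with Tnf and 15.2% of cells without (12.4% and 9.68% in ABX). With Il1b it was in 17.5% of NW cells against 12.7% without, and with Nfkbiz in 17.8% against 7.94%. For Tnfaip3 these NW shares were 15.8% and 12.4%, and for Il1a 15.0% and 13.8%. Il1rn was too rare in this state to compare, at 0% of NW cells with Tnf and 0.448% without, and 0% of both in ABX. Over macrophage-like cells of middle depth Il1rn was in 2.66% of 339 NW cells with Tnf and 1.04% without. In ABX these shares were 1.17% of 257 cells and 0.395%. Only 36 of these NW cells had an Il1rn UMI, and NW cells with Tnf were deeper (median 6059 against 5614 UMIs). The NW shares were 2.21% with and 1.15% without Il1b, 1.03% and 1.34% for Nfkbiz, and 1.17% and 1.25% for Tnfaip3. At least 5 of the 9 members were counted in 5.67% and 6.49% of Cx3cr1+ cells and in 0.786% and 1.30% of macrophage-like cells. Cells of 1 library share their dissociation and sequencing, and these shares are a description.

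The genes most like each cytokine in level over the 21 classes of both libraries (42 profiles, Pearson's r on log2 of CPM + 10) were Nfkbiz (0.73), Fosl2 (0.66) and Junb (0.65) for Tnf. For Il1b they were Nlrp3 (0.93), which encodes the inflammasome sensor that leads to IL-1β cleavage, Ifitm1 (0.87) and Hist1h1c (0.87). For Nfkbiz they were the immediate early genes Junb (0.89), Ier2 (0.84) and Nr4a1 (0.82). Tnf and Il1b themselves correlated at 0.38. Profiles of 1 library share their depth and handling.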

How the data were processed

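Single-cell RNA was captured on the BD Rhapsody platform, and the counts used are UMI counts per gene and cell as deposited by the authors, made with the BD whole transcriptome pipeline on GRCm38 (mm10). The submitters' processing notes also name R 3.6.0 and Seurat 3.0.1. The deposited tables held 17662 NW and 17785 ABX barcodes. Cells with at least 500 gene UMIs, at least 200 genes and at most 25% mitochondrial UMIs were kept, which left 75214427 gene UMIs in NW and 60770758 in ABX. The libraries shared 371 cell indexes before filtering and 196 after.

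Cells of both libraries were clustered together without integration in Seurat 5.3.0 (R 4.3.3), from 2000 variable genes less 7 members, 30 principal components and 8 antibodies, at resolution 0.6, which gave 29 clusters. A cluster was named where at least 3 markers of a type were 1.5-fold higher than in the other cells and present in 10% of its cells, and called macrophage-like with at least 7 of 9 markers. Doublets were kept, since Scrublet's own threshold marked 2.94% of NW and 0.0865% of ABX cells. An alternative removed scores above the 95th percentile.

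UMIs were summed per class and library and scaled to CPM (Python 3.11.15, numpy 2.4.6, scipy 1.17.1, pandas 2.3.3, scanpy 1.11.5), with exact Poisson intervals for levels, exact conditional intervals for ratios and Clopper-Pearson intervals for shares, at 95%. Shares after thinning are expected values at 1000 UMIs per cell, over the 12225 NW and 12348 ABX cells that deep. Ratios were computed in classes with at least 50 cells per library. The calculation was tested on simulated Poisson counts, which leave out the uneven spread of UMIs between cells. A gene counted as past the fold at 1.5-fold or more, with an interval excluding no difference and at least 200 UMIs over both libraries. All 9 members were named, with up to 3 genes per pathway list past that fold and the 3 genes most alike to Tnf, Il1b and Nfkbiz (at least 1000 UMIs). Ccl3, Ccl4, Dusp2, Cxcl1 and Cxcl2 were chosen after their values were seen. The members, lists and comparisons were chosen with earlier results of these data known. Alternatives changed the filters, the clustering, the scaling, the weighting of cells and clusters, and the doublet treatment.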

Additional observations from a re-analysis of the deposited data

Results flagged for a closer look

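For Il1b and Tnfaip3, some classes had a log2 ratio of ABX to NW opposite in sign to that of macrophage-like cells, both with intervals excluding 0 and at least 200 UMIs. In macrophage-like cells the ratio was 0.52 for Il1b and 0.25 for Tnfaip3. Against this, Il1b had -0.94 in cDC1-like, -0.92 in neutrophil-like, -0.82 in Fn1/Ear2, -0.56 in cDC2-like and -1.17 in endothelial-like cells. Tnfaip3 had -1.01 in CD4 T-like, -0.90 in B-like, -0.81 in Klra1/Ly6c2, -0.80 in ILC2-like, -0.69 in Treg-like and -0.69 in CD8 T-like cells. Its ratio was -0.43 in endothelial-like, -0.41 in cDC1-like, -0.33 in mature DC-like and -0.32 in Fn1/Ear2 cells. With 1 library per condition the difference between classes was not tested.

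The barcodes removed by the filters (5188 in NW, 5061 in ABX) also held transcripts of the members, above the 3 UMIs that a count of 0 allows. In NW and ABX respectively they held 306 and 193 UMIs of Nfkbiz, 228 and 89 of Il1b, 207 and 110 of Tnfaip3, 90 and 61 of Tnf and 57 and 52 of Il18. Il1rn had 22 and 9, Ptgs2 22 and 6, and Il1a 6 in ABX.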

How the results depend on the processing

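No paired analysis was possible because each condition had 1 library. The log2 ratios of the 9 members in macrophage-like cells were recomputed under 14 alternatives each. Of the 126 values, 101 stayed within the interval of the reported value, 25 moved outside it, and 0 values past the fold changed sign. The sign turned under 1 alternative each for Il6, Nfkbiz and Ptgs2, which were under the fold. Giving each cluster the same share in both libraries gave 0.0703 for Tnf, 0.0865 for Il1b, 0.69 for Il1a, 0.0036 for Tnfaip3, -0.32 for Nfkbiz and -0.0024 for Ptgs2. Shares of cells with a UMI after thinning gave 0.23 for Tnf, 0.0782 for Il1b, 0.68 for Il1a, 0.0034 for Tnfaip3 and -0.24 for Nfkbiz. The mean of per-cell CPM gave 0.26, 0.22, 0.0752 and -0.14 for Tnf, Il1b, Tnfaip3 and Nfkbiz. Without the 1% of cells with the most UMIs of the gene, Il1b was at 0.62, Il1a at 3.16, Il1rn at -2.32, Il6 at 0.68, Tnfaip3 at 0.12 and Nfkbiz at -0.16. About 1% of macrophage-like cells had any UMI of Il1a, Il1rn or Il6, so this left few UMIs of them. With at most 10% mitochondrial UMIs, Tnfaip3 was at 0.37 and Nfkbiz at 0.0284. Il1a was at 1.78 with 50 principal components, and Il1rn at -1.25 with the members kept among the variable genes. At a minimum of 50 UMIs in place of 200, the genes past the fold went from 336 to 941 higher and from 110 to 185 lower. Except where a value shows it, the cause was not tested.

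Alternatives for other classes, leaving out cell indexes shared by the libraries, and leaving out cells with at least 5 UMIs of other cell types' markers were chosen after seeing the data. All 65 of these values for other classes kept the sign of the reported value, and 44 stayed within its interval. Matching cells over stress bins took Il1b in cDC1-like cells to -0.54 and in neutrophil-like cells to -0.19. Levels in cells of at least 1000 UMIs stayed within the interval for 18 of 18 values. Il6 rests on the fewest UMIs, 157 in NW and 101 in ABX.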

Other observations

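Tnf was also measured in smaller lymphocyte classes. The γδ T-like cells held 79.3 CPM in NW (62.6–99.1, 77 UMIs) and 51.9 in ABX (38.1–69.0, 47 UMIs), and an unnamed cluster led by Il18r1 and Tcrg-C2 held 121 (88.3–163, 44 UMIs) and 66.5 (48.5–89.0, 45 UMIs). The γδ T-like cells were the class with the fewest Il1b UMIs per cell among the T-like classes, 4 in 241 NW and 3 in 290 ABX cells.

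Il18 had a log2 ratio of 0.43 (0.18–0.68) in the Retnla/Cd163 macrophage-like state, where it stood at 18.3 CPM in NW and 24.8 in ABX, and of -0.16 in the Lyve1+ state. Interferon-stimulated macrophage-like cells held 42.9 CPM (26.5–65.5) and 54.3 (33.2–83.9) of it, from 21 and 20 UMIs. Il1a went from 33 UMIs in NW to 3 in ABX cDC1-like cells, a log2 ratio of -2.92 (-5.27 to -1.25).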
